A study of Mus musculus with 36 samples.

Results

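The REV-ERB, ROR-alpha and DEC loops of the circadian clock were followed through 5 genes in mouse liver, namely Nr1d1, Nr1d2, Rora, Bhlhe40 and Bhlhe41. The members were the probe sets annotated with those symbols. Each gene had 1 probe set, so 5 of the 22180 genes of the array were described. RNA of whole liver was measured on 1-colour Affymetrix arrays at 6 Zeitgeber times (ZT, hours after lights on) in animals kept in 12 h of light and 12 h of dark. TB livers came from C57BL/6 mice of genotype KrasLSL-G12D;p53fl/fl with lung adenocarcinoma, and WT livers came from C57BL/6 mice labelled WT. The KrasLSL-G12D allele carries a stop cassette that must be removed by Cre recombinase, and the p53fl/fl alleles are floxed. The labels name neither the source of Cre nor the ages of the animals. Each genotype and ZT had 3 arrays, which made 12 groups and 36 arrays. No label says whether the 3 arrays of a group came from separate animals, and the p-values cover array-to-array spread alone.

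The clock of a liver cell rests on CLOCK and BMAL1 (gene Arntl), which bind E-boxes and switch on their own repressors. REV-ERB-alpha (Nr1d1) and REV-ERB-beta (Nr1d2) are nuclear receptors that bind heme and repress genes carrying a ROR response element (RORE), Arntl among them, through the NCoR and HDAC3 corepressor complex. ROR-alpha (Rora) binds the same element as an activator. DEC1 (Bhlhe40) and DEC2 (Bhlhe41) are basic helix-loop-helix repressors that compete at E-boxes. Liver REV-ERB is known for its part in the daily control of lipid and bile acid metabolism.

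RefSeq promoter windows (build GRCm38.p6, 250 bases before to 50 bases after the annotated gene start) were listed for 4 of the 5 genes. The windows of the 3 genes with the highest amplitudes are shown because each held 1 match to a clock motif, in capitals. Nr1d1 lies at chr11:98775328-98775627 on the minus strand, Nr1d2 at chr14:18239057-18239356 on the minus strand and Bhlhe41 at chr6:145865371-145865670 on the minus strand, all written 5′ to 3′ along the gene.
Nr1d1: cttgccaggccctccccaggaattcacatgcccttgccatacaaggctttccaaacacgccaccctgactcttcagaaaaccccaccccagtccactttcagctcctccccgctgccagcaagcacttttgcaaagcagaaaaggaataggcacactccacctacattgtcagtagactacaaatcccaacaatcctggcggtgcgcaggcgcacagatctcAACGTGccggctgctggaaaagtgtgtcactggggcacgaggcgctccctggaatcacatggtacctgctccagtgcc
Nr1d2: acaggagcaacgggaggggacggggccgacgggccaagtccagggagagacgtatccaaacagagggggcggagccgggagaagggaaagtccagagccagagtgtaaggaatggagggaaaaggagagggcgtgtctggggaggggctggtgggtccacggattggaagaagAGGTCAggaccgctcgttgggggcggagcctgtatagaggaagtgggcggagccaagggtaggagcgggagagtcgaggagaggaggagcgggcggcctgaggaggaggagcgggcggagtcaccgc
Bhlhe41: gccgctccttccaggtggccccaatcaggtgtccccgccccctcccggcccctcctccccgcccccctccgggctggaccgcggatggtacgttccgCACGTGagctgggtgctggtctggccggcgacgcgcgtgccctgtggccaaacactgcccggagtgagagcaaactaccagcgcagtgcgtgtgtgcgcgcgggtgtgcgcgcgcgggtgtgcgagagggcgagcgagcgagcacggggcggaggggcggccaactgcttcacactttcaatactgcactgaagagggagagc
The motifs searched on both strands were the E-box CACGTG, the E′-box CACGTT, the RORE half-site AGGTCA and the D-box TTATGTAA, and none of these overlapped another. Nr1d1 held the reverse complement of the E′-box 28 bases upstream of its start, a motif found in 4.68% of 32851 promoter windows. Nr1d2 held AGGTCA 77 bases upstream, a motif of 16.3% of windows. Bhlhe41 held CACGTG 153 bases upstream, a motif of 7.15% of windows. The Rora window at chr9:68653536-68653835 held none of the 4 motifs, and the D-box was in 0.938% of all windows. Such a match describes letters in a window and shows no binding.

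Some facts of the whole series touch these genes. Hepatocyte markers were present on all arrays (6 of 6 measured, summed intensity 35926 to 39575 in TB livers and 35254 to 39869 in WT livers). No hepatocyte, Kupffer cell, endothelial, stellate or lung epithelial marker passed the test between genotypes, and 1 of 6 neutrophil markers did. Replicate 3 of WT ZT 12 was high in skeletal muscle markers, with a summed intensity of 10 muscle markers of 269267 against a median of 532 on the other arrays. The arrays were also split into sets of 12 and 24 from their deviations within groups, over probe sets without a gene symbol. The sign of the main component of these deviations set the split. Deviations cancel within a group, so each group had to hold arrays of both signs, here with 1 array of the smaller set. The labels do not name the sets. On these same arrays the sets differed in 30.6% of genes but in none of the 5 members (limma adjusted p 0.064 to 0.757). Whole tissue was measured, so fewer cells of a type and less RNA per cell cannot be told apart.

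Nr1d1 had the widest daily range of the members in both genotypes. At ZT 0 its intensity was 298, 62.1 and 52.1 in TB livers, against 51.0, 40.8 and 66.4 in WT livers. At ZT 4 it was 769, 805 and 674 in TB livers, against 731, 819 and 841 in WT livers. The transcript was low at lights on and high 4 h later in every array, except that replicate 1 of TB ZT 0 stood well above the other 5 arrays of ZT 0. At ZT 8 the values were 435, 1046 and 908 in TB livers, against 1059, 691 and 1219.5 in WT livers. At ZT 12 they were 265, 231 and 243 in TB livers, against 267, 381 and 437 in WT livers. The ZT 8 arrays of the genotypes overlapped, with replicate 1 of TB lowest, whereas at ZT 12 all 3 TB arrays lay below all 3 WT arrays. At ZT 16 the values were 51.9, 56.2 and 68.4 in TB livers, against 104, 128 and 44.7 in WT livers. At ZT 20 they were 29.6, 17.7 and 19.8 in TB livers, against 31.8, 14.9 and 16.4 in WT livers. The lowest level of the cycle was at ZT 20 in both genotypes. Between the highest and lowest group means the range was 20.1-fold in TB livers and 27.0-fold in WT livers on the log2(intensity + 16) scale used for all tests, which understates changes at low intensity.

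Nr1d2 ran later and through a smaller range. At ZT 0 its intensity was 300.4, 83.2 and 80.6 in TB livers, against 47.4, 92.5 and 113 in WT livers. At ZT 4 it was 443, 484 and 427 in TB livers, against 425, 430.4 and 436 in WT livers. The same array, replicate 1 of TB ZT 0, was again far above the rest of its time. At ZT 8 the values were 649, 1003 and 769 in TB livers, against 783, 729 and 831 in WT livers. At ZT 12 they were 633, 555 and 728 in TB livers, against 597, 679.6 and 787 in WT livers. The level stayed high across these times, and the genotypes overlapped at each. At ZT 16 the values were 365, 347 and 371 in TB livers, against 600.0, 366 and 328 in WT livers. At ZT 20 they were 81.3, 105 and 96.5 in TB livers, against 110.4, 99.0 and 85.2 in WT livers. The range of group means was 7.37-fold in TB livers and 8.27-fold in WT livers.

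Rora, the activator that shares the REV-ERB element, was nearly flat. Over 18 TB arrays it had a lowest of 292, a median of 375 and a highest of 435, and over 18 WT arrays it had a lowest of 292, a median of 373 and a highest of 452. Its group means spanned 1.18-fold in TB livers and 1.21-fold in WT livers, and the genotypes overlapped at all 6 times.

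Bhlhe41 (DEC2) was low for most of the cycle and high around ZT 8. At ZT 4 its intensity was 46.4, 31.8 and 43.0 in TB livers, against 34.6, 33.2 and 38.1 in WT livers. At ZT 8 it was 56.0, 226 and 123 in TB livers, against 191, 92.3 and 262 in WT livers. At ZT 12 it was 46.8, 43.8 and 40.4 in TB livers, against 32.2, 60.5 and 127 in WT livers. The ZT 8 arrays scattered widely in both genotypes, and the highest WT value of ZT 12 was on the array with high muscle markers. At ZT 0 the values were 26.0, 28.4 and 28.2 in TB livers, against 39.9, 26.5 and 28.8 in WT livers. At ZT 16 they were 39.7, 32.3 and 38.2 in TB livers, against 34.0, 52.6 and 38.6 in WT livers. At ZT 20 they were 32.1, 40.4 and 23.3 in TB livers, against 29.2, 32.0 and 22.7 in WT livers. These levels lay close to the medians of whole arrays, which ran from 36.3 to 43.3. Group means spanned 3.08-fold in TB livers and 4.20-fold in WT livers.

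Bhlhe40 (DEC1) had a shallow cycle with a broad evening plateau. At ZT 0 its intensity was 548, 492 and 741 in TB livers, against 689, 967 and 731 in WT livers. At ZT 4 it was 773, 512 and 856 in TB livers, against 599.9, 377 and 754 in WT livers. At ZT 8 it was 1172, 1074 and 967 in TB livers, against 994, 881 and 1115 in WT livers. Replicate 2 was the lowest array of ZT 4 in both genotypes, and the genotypes overlapped at these times. At ZT 12 the values were 956, 1048 and 1121 in TB livers, against 1074, 1038 and 1135 in WT livers. At ZT 16 they were 1026, 1065 and 1149.8 in TB livers, against 1274, 1269 and 868 in WT livers. At ZT 20 they were 847, 892 and 731 in TB livers, against 562, 1019.7 and 651 in WT livers. Group means spanned 1.82-fold in TB livers and 1.99-fold in WT livers.

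**Figure D1:**
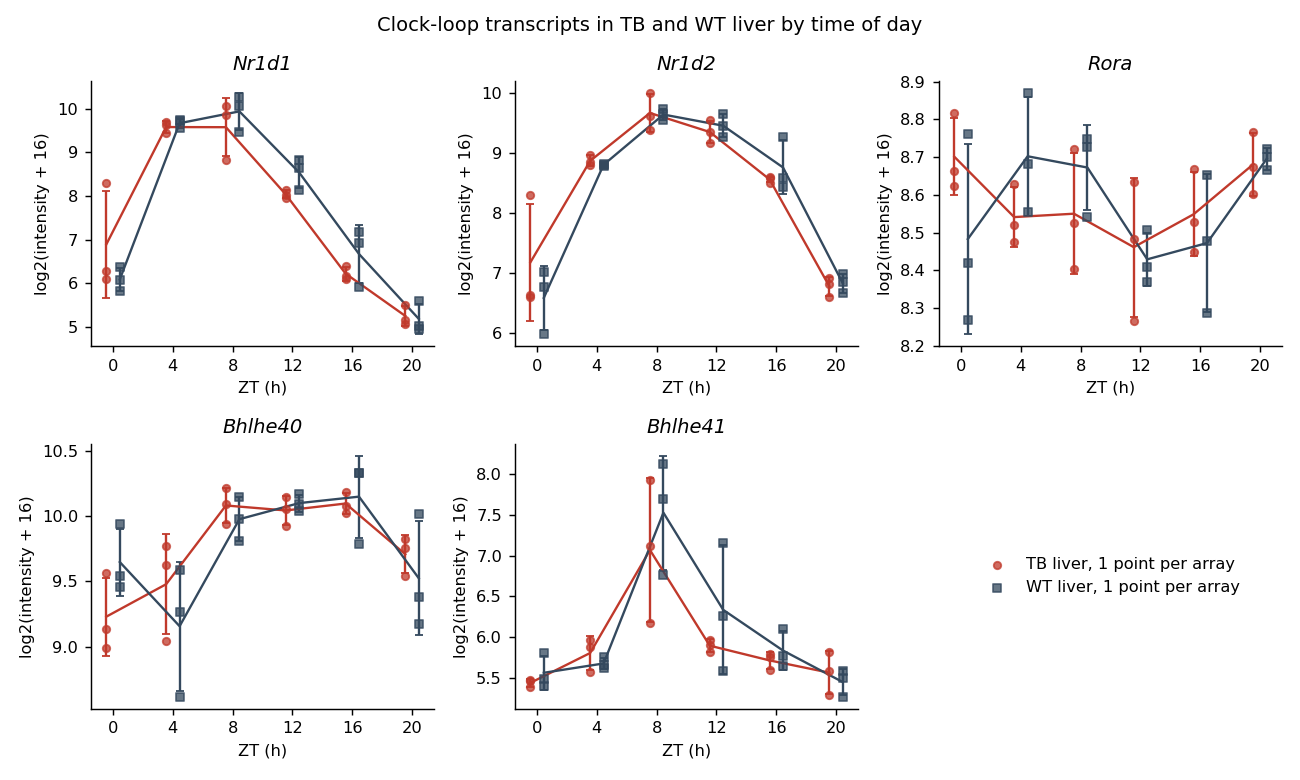
Each panel plots 1 gene as log2(intensity + 16) against ZT in hours, with its own vertical range, TB arrays as circles left of WT arrays as squares, and lines and bars for the group mean and SD of 3 arrays. Nr1d1 and Nr1d2 climb between ZT 0 and ZT 4, their lowest group mean is at ZT 20 except for Nr1d2 in WT livers (ZT 0), Bhlhe41 stands out at ZT 8, and the group means of Rora span 1.18-fold in TB livers and 1.21-fold in WT livers.

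The 24 h rhythm of each gene was tested with a cosine fitted in limma, with p-values adjusted over all genes at a threshold of 0.05. Of the 5 members 3 were called rhythmic in TB livers, where 4.95% of all genes were, and 4 in WT livers, where 6.45% were. The median amplitude of the members was 0.60 in TB livers and 0.84 in WT livers on the log2 scale, beside 0.09 in TB livers and 0.09 in WT livers over all genes. Nr1d1 had an amplitude of 2.28 ± 0.17 (SE) and a fitted peak at ZT 6.92 ± 0.29 in TB livers, and of 2.50 ± 0.17 with a peak at ZT 7.76 ± 0.27 in WT livers (limma adjusted p 1.07e-10 in TB and 1.23e-11 in WT). Nr1d2 had an amplitude of 1.47 ± 0.14 with a peak at ZT 9.42 ± 0.37 in TB livers, and of 1.64 ± 0.14 with a peak at ZT 9.99 ± 0.33 in WT livers (limma adjusted p 2.89e-08 in TB and 1.67e-09 in WT). Both receptors were thus rhythmic in each genotype. Bhlhe40 was called in each genotype, with an amplitude of 0.44 ± 0.10 in TB livers and 0.42 ± 0.10 in WT livers (limma adjusted p 0.00901 in TB and 0.0118 in WT). Its fitted peak lay at ZT 12.6 ± 0.82 in TB livers and ZT 13.4 ± 0.86 in WT livers.

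Bhlhe41 was called in WT livers and missed the threshold in TB livers. Its amplitude was 0.60 ± 0.17 in TB livers (limma adjusted p 0.0751) and 0.84 ± 0.17 in WT livers (limma adjusted p 0.00391). The amplitude difference, TB minus WT, had a 95% interval from -0.72 to 0.25, and the TB rhythm passed when time was a 6-level factor (adjusted p 0.0175, with values from 0.0175 to 0.0341 over the models that allow a sharper shape). The 24 h term held 62.7% of the between-time variance of Bhlhe41 in TB livers and 69.4% in WT livers, against 98.2% in TB livers and 95.6% in WT livers for Nr1d1. Rora was not called, with amplitudes of 0.11 ± 0.05 in TB livers and 0.08 ± 0.05 in WT livers (limma adjusted p 0.462 in TB and 0.672 in WT).

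The study compared livers of tumour-bearing and WT mice over the cycle. Over all ZT, 0 of 5 members differed between TB and WT, where 0.176% of all genes did, and 0 members had an unadjusted limma p under 0.05. The differences, TB minus WT on the log2 scale, were -0.09 ± 0.15 for Nr1d1, 0.05 ± 0.12 for Nr1d2, 0.00 ± 0.05 for Rora, 0.01 ± 0.09 for Bhlhe40 and -0.15 ± 0.13 for Bhlhe41 (SE, limma adjusted p 0.718 to 0.984). The 95% interval ran from -0.40 to 0.22 for Nr1d1 and from -0.10 to 0.11 for Rora. Differences within these bounds remain compatible with the data, and the bounds are not limits of detection. Genotype by ZT interaction and differential rhythm were called for 0 of 5 members and for 0% of all genes, with 0 members under an unadjusted limma p of 0.05 in either test, against 550 genes for the interaction and 1065 for differential rhythm.

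At single times, 0 of 30 member and ZT tests passed, where 0.00451% of all genes did at ZT 8 and 0% at each of the other 5 times. The largest difference was that of Nr1d1 at ZT 0, with 0.80 ± 0.37 (limma adjusted p 1.00, unadjusted p 0.0397), and Nr1d2 at ZT 0 had 0.59 ± 0.28 (unadjusted p 0.0467). These were the 2 member tests with an unadjusted p under 0.05, where 4.74% of all genes had one at ZT 0. Both rested on replicate 1 of TB ZT 0. Without that array the difference was 0.10 for Nr1d1 and 0.03 for Nr1d2. On that array 6 of 9 E-box clock outputs were above both other arrays of the group and 3 of 5 RORE clock genes were below both, and its summed Kupffer cell markers were the highest of all arrays at 2062, next to 1937 on a WT array (TB median 1178, WT median 958). The part of any of these in the result was not tested. In any group of 3 arrays, 1 is the highest and 1 the lowest for each gene. The share of all genes above or below both other arrays on replicate 1 of TB ZT 0 is not given here. The single case without overlap was Nr1d1 at ZT 12, with a TB minus WT difference of -0.50 ± 0.37 (limma adjusted p 0.807), at a time when 11.0% of all genes did not overlap and 4.26% had all TB arrays below all WT arrays. Its closest arrays were 265 in TB livers and 267 in WT livers, and without the muscle-bearing array the difference was -0.36. Bhlhe41 differed by -0.44 at ZT 12 and by -0.03 without that array. At ZT 8 Bhlhe41 differed by -0.46, and by -0.01 without replicate 1 of TB ZT 8. In the larger array set Bhlhe41 at ZT 8 had a difference of -1.26, from 2 TB and 2 WT arrays. In the smaller set the difference was 1.16, from 1 TB array and 1 WT array.

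**Figure D2:**
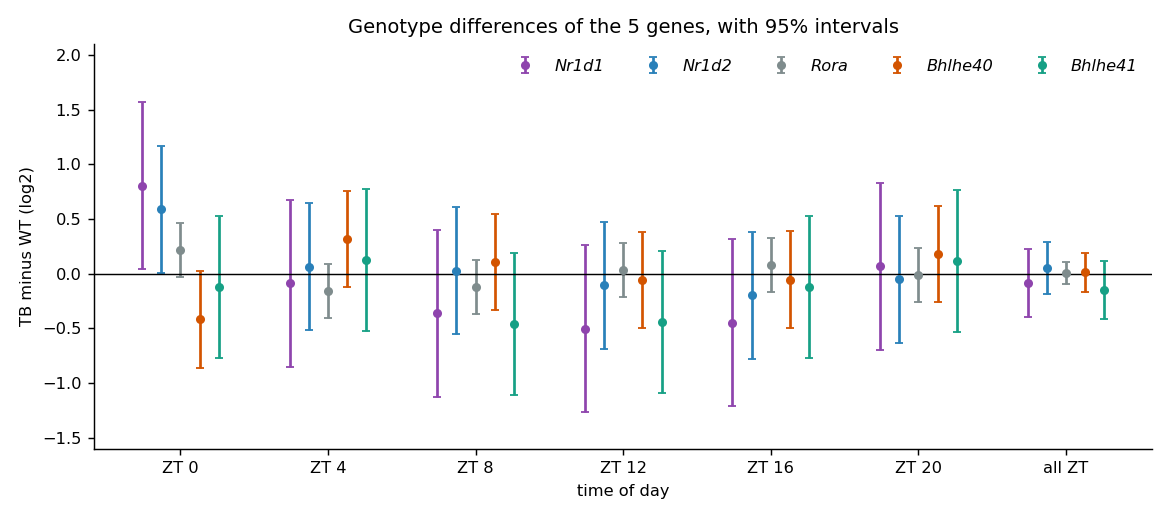
TB minus WT differences on the log2 scale (vertical) of the 5 genes at each ZT and over all ZT (horizontal), as points with 95% intervals from limma. At ZT 0 the intervals of Nr1d1 and Nr1d2 lie above 0, around 0.80 and 0.59, and those of all 5 genes over all ZT include 0.

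Peak times of all 4 members with a rhythm in at least 1 genotype were fitted earlier in TB livers. The difference, TB minus WT, was -0.84 ± 0.39 h for Nr1d1, -0.56 ± 0.49 h for Nr1d2, -0.84 ± 1.19 h for Bhlhe40 and -0.57 ± 1.33 h for Bhlhe41 (SE). The differential rhythm test did not call any of them (limma adjusted p 0.985 to 0.994, unadjusted p 0.0829 for Nr1d1). Of the 594 genes rhythmic in both genotypes, 70.2% also had an earlier fitted peak in TB livers, with a median difference of -0.57 h, and the direction of the members was that of most rhythmic genes. Without replicate 1 of TB ZT 0 the Nr1d1 difference was -0.58 ± 0.36 h. In the larger array set alone the direction turned for both DEC genes, with Bhlhe40 at ZT 12.6 in TB livers and 12.5 in WT livers and Bhlhe41 at ZT 8.99 in TB livers and 8.72 in WT livers.

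Changes between successive times, 4 h apart, placed the daily transitions of the receptors. In TB livers 4 of 30 member and step tests passed, and in WT livers 5 of 30. The rise into ZT 4 was called for both receptors in both genotypes, at 2.69 for Nr1d1 and 1.69 for Nr1d2 in TB livers, and at 3.58 for Nr1d1 and 2.21 for Nr1d2 in WT livers, on the log2 scale. At that step 0.0135% of all genes were called higher in TB livers and 0.0135% in WT livers. Without replicate 1 of TB ZT 0 the TB rise was 3.39 for Nr1d1 and 2.25 for Nr1d2. The TB call of Nr1d2 was lost without ZT 0 replicate 2 or 3 or ZT 4 replicate 2, with only the TB arrays and in the larger array set, with adjusted p from 4.79e-07 to 0.621 over the alternatives, and that of Nr1d1 was lost in the larger array set (1.56e-07 to 0.278). Nr1d1 fell at ZT 16 relative to ZT 12 by 1.81 in TB livers (limma adjusted p 0.0253, where 0.0451% of all genes fell) and by 1.87 in WT livers (limma adjusted p 0.0348, where 0.0361% of all genes fell). The TB call was lost when any of the 6 TB arrays of ZT 12 and ZT 16 was left out, with adjusted p from 0.000713 to 0.257 over the alternatives. Adding 1 in place of 16 to the intensities (limma adjusted p 0.0603), the larger array set (0.257) and only the TB arrays (0.161) lost it too. The WT call was lost without 4 of 36 arrays, namely ZT 12 replicates 2 and 3 and ZT 16 replicates 1 and 3 (0.000772 to 0.434). Further losses of the WT call came from adding 1 in place of 16 (limma adjusted p 0.0920) and from the larger array set (0.285). A replicate block (0.0528) and robust fitting with a variance trend (0.0703) also lost it. Nr1d2 fell at ZT 20 relative to ZT 16 by 1.78 in TB livers (limma adjusted p 0.00332, where 0.0135% of all genes fell) and by 1.93 in WT livers (limma adjusted p 0.000801, where 0.0586% of all genes fell). The TB call was lost without replicate 1 of TB ZT 20 (adjusted p 0.0585), with only the TB arrays (0.0882) and in the larger array set (0.109), and the WT call in the larger array set (0.133). Bhlhe41 rose at ZT 8 relative to ZT 4 by 1.84 in WT livers (limma adjusted p 0.0019, where 0.113% of all genes rose), and without replicate 3 of WT ZT 8 the adjusted p was 0.055 (range over alternatives 2.03e-06 to 0.055). In TB livers that step of Bhlhe41 was 1.26 and not called (limma adjusted p 0.0842, where 0.108% of all genes rose), and without replicate 1 of TB ZT 8 it was 1.71 with an adjusted p of 0.00463 (range 0.00463 to 0.406). The step was not tested between genotypes by itself.

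Arrays of the same group that were high for Nr1d1 tended to be high for Nr1d2. There were exceptions, such as replicate 2 of WT ZT 16, with a deviation of 0.50 for Nr1d1 and -0.18 for Nr1d2. Over the deviations of 36 arrays from their group means, Pearson r was 0.75 and Spearman rho 0.56 (permutation within groups, two-sided, p = 0.00742 for r, adjusted over 10 member pairs 0.0371, and p = 0.00866 for rho, adjusted 0.0437). Without the 2 arrays farthest in Nr1d1, replicates 1 and 3 of TB ZT 0, r was 0.54. The group means were not recomputed for this. Replicate 2 of TB ZT 0 stayed at -0.60 for Nr1d1 and -0.55 for Nr1d2, relative to means that held replicate 1. This r is therefore not free of that array. Pearson r was 0.90 over TB arrays and 0.46 over WT arrays, with 0.76 over the set of 24 arrays and 0.89 over the set of 12. The TB arrays and both sets include arrays of TB ZT 0, where replicate 1 deviated by 1.40 for Nr1d1 and 1.13 for Nr1d2. Their r values are not free of that array either. A difference in r between TB and WT arrays was not tested. Nr1d2 and Rora had r 0.58 and rho 0.54 (permutation p adjusted 0.0125 for r and 0.0437 for rho). Without the 2 arrays farthest in Nr1d2, and with the group means kept, r was 0.56. Nr1d1 and Bhlhe41 had r 0.44 and rho 0.40, with permutation p adjusted to 0.0489 for r and 0.172 for rho. Over 5 further draws of 100000 permutations the adjusted p for r of that pair ran from 0.0483 to 0.0513 and was under 0.05 in 4, so the pair lay at the threshold within the error of the permutation and was not called, while the calls on r of Nr1d1 with Nr1d2 and of Nr1d2 with Rora held in all 5. The other 7 pairs had adjusted p of 0.367 or more for r.

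**Figure D3:**
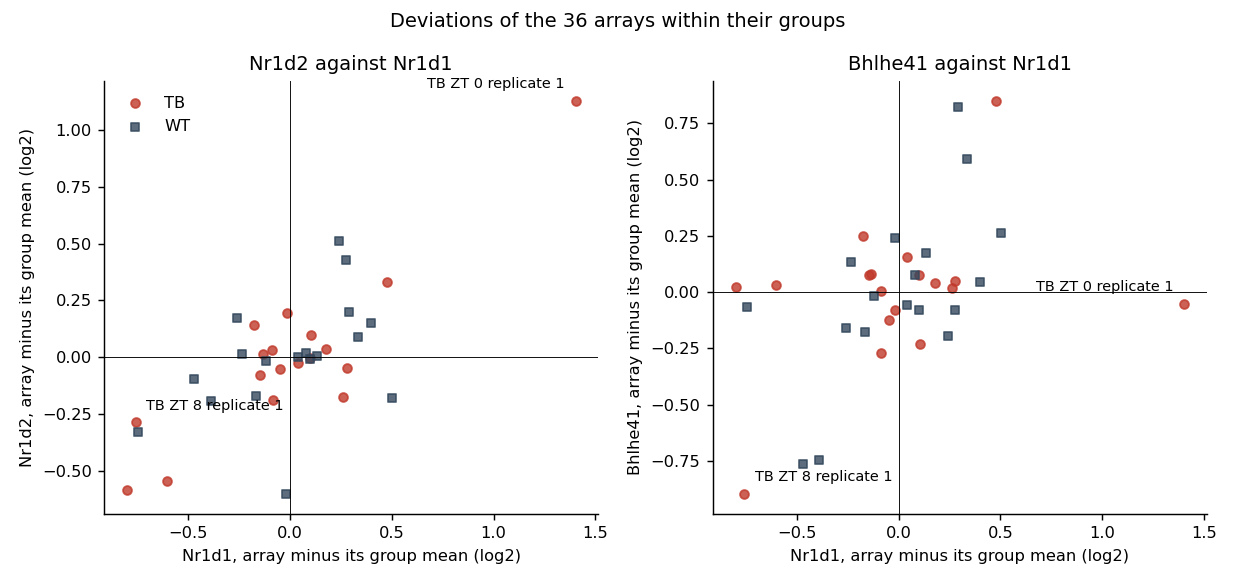
Each point is 1 of the 36 arrays, TB as circles and WT as squares, placed by its deviation from the group mean (log2) for Nr1d1 (horizontal) and for Nr1d2 or Bhlhe41 (vertical). Replicate 1 of TB ZT 0 is far to the right and top for Nr1d2 and near 0 for Bhlhe41, and r is 0.75 for Nr1d2 and 0.44 for Bhlhe41.

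The other genes of the loops were taken as lists chosen with earlier results known. Of E-box clock outputs, 9 of 10 were measured and 8 were rhythmic in TB livers and 9 in WT livers. Hlf was the exception (limma adjusted p 0.131 in TB and 0.000499 in WT). Dbp, a PAR bZIP output of the clock, peaked at ZT 10.1 ± 0.21 in TB livers and ZT 10.5 ± 0.20 in WT livers. The period genes Per3 and Per1 peaked later, Per1 at ZT 12.3 in TB livers and 13.2 in WT livers. Of RORE clock genes, targets of REV-ERB repression, 5 of 6 were measured and 5 were rhythmic in each genotype. Cry1 peaked at ZT 19.3 in TB livers and 19.5 in WT livers. Arntl peaked at ZT 22.1 in TB livers and 22.4 in WT livers, and Npas2 at ZT 23.6 in TB livers and 23.9 in WT livers. Their levels did not mirror those of Nr1d1 at every time. At ZT 4, when Nr1d1 was already high, Arntl intensity was still 305, 284 and 179.7 in TB livers, against 380.4, 378 and 279.8 in WT livers. At ZT 16, when Nr1d1 was low again, Npas2 intensity was 24.2, 29.4 and 19.3 in TB livers, against 19.3, 26.5 and 22.4 in WT livers. Other RORE genes had risen by ZT 16. Arntl was at 262, 202 and 236 in TB livers, up from 24.6, 34.8 and 33.3 at ZT 12. In WT livers it was at 157, 208 and 244, up from 68.1, 25.1 and 41.7. Cry1 at ZT 16 was at 188, 157 and 151 in TB livers, against 183, 164 and 171 in WT livers. Nr1d2 at ZT 16 was still at 365, 347 and 371 in TB livers, and at 600.0, 366 and 328 in WT livers. Its part in these levels was not tested. None of the lists had a gene called for genotype or differential rhythm.

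**Figure D4:**
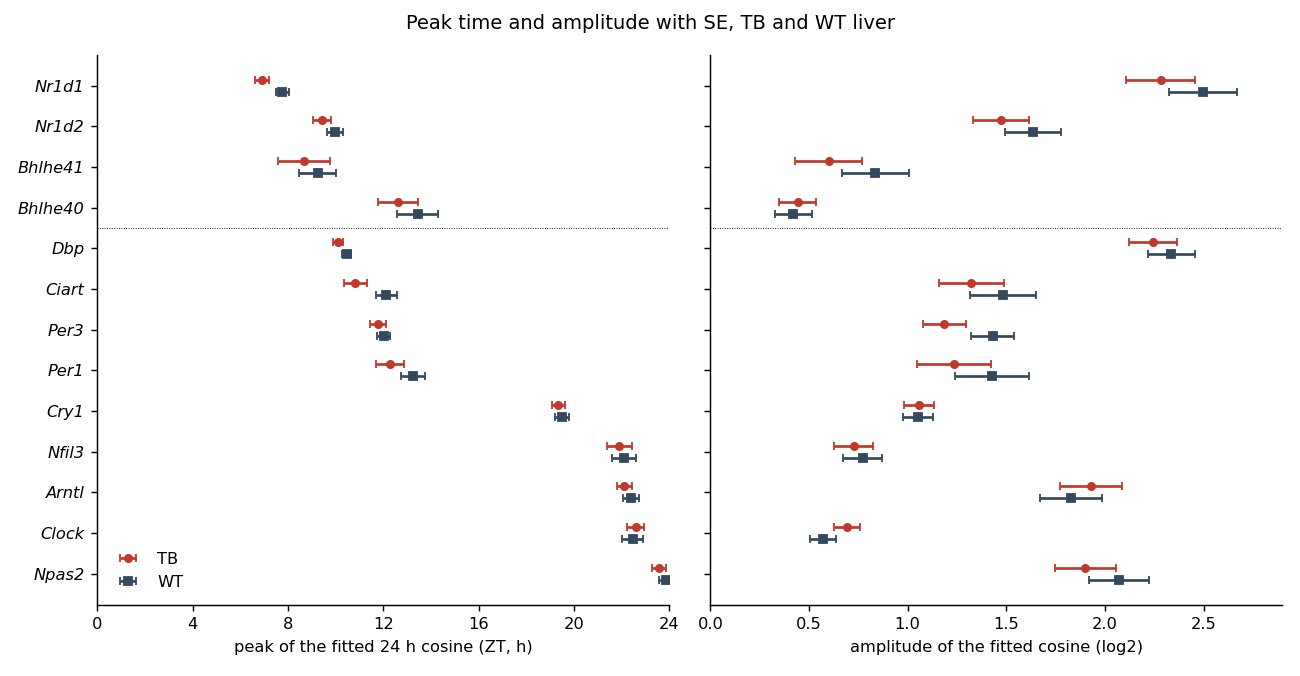
Peak time of the fitted 24 h cosine (left, ZT in hours) and amplitude (right, log2) with SE, TB as circles above WT as squares. The 4 members called rhythmic in at least 1 genotype are above the dotted line and listed clock genes below it. Bhlhe41 was not called in TB livers. Nr1d1 peaks first at ZT 6.92 in TB and 7.76 in WT, and the RORE genes from Cry1 to Npas2 peak between ZT 19.3 and 23.9.

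Rhythm calls among cofactors and outputs stand beside 4.95% of all genes in TB livers and 6.45% in WT livers. Of NCoR and HDAC3 corepressor genes 4 of 6 were measured and 0 were rhythmic. Of 5 genes of REV-ERB turnover 0 were rhythmic in TB livers and 1 in WT livers, the ubiquitin ligase subunit Fbxw7 with an amplitude of 0.16. Of 6 ROR coactivator genes 1 was called in TB livers (Nrip1) and 1 in WT livers (Ncoa2). Of 7 measured heme synthesis genes, Alas1, the rate-limiting enzyme, was called in both genotypes, with amplitudes of 0.94 ± 0.18 in TB livers and 0.99 ± 0.18 in WT livers, and Ppox in WT livers. Of 12 measured REV-ERB and ROR metabolic targets 3 were called in TB livers (Pck1, Insig2 and Avpr1a) and 4 in WT livers, which added Cyp7a1, the rate-limiting enzyme of bile acid synthesis. Insig2, which restrains lipid synthesis, had amplitudes of 1.16 ± 0.11 in TB livers and 0.93 ± 0.11 in WT livers with peaks at ZT 23.5 in TB livers and 23.8 in WT livers. Of 5 bHLH-Orange relatives of the DEC genes 0 were rhythmic. Thra, whose gene overlaps the 3′ end of Nr1d1 over 1075 bases on chr11:98767932-98769006, was rhythmic with amplitudes of 0.33 in TB livers and 0.24 in WT livers and peaks at ZT 2.65 in TB livers and 4.67 in WT livers. Where the Thra probe set lies relative to the overlap was not tested.

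Likeness was ranked by Pearson r over the 12 group means, among 10197 genes at or above the median level (10198 for Bhlhe41). Symbols of predicted or unnamed gene models and of small RNAs had been left out of these genes. The pattern most like Nr1d1 was that of Tbc1d17 (r 0.97), then Cir1 and Gpbp1l1, and the most opposite was that of Cry1 (r -0.98). Nr1d2 was closest to Slc38a3 (r 0.96), Anxa7 and Vwce, and most opposite to Cdkn1a (r -0.98). Bhlhe40 was closest to Slc37a4 (r 0.92), Igfbp4 and Alas1, and most opposite to Prkx (r -0.95). Bhlhe41 was closest to Plekha6 (r 0.94), Ppargc1b and Scamp1, and most opposite to Net1 (r -0.93). Rora, with little daily change, reached r 0.90 with Sp3 and -0.93 with Tmem189. These values describe 12 means that share the arrays and the time course.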

How the data were processed

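RNA of mouse liver was measured on 36 1-colour Affymetrix arrays. The deposited values are probe set signals of linear intensity, made by the authors with Affymetrix Expression Console 1.1.1 and PLIER 2.0 per the submitters' processing notes. The settings of these tools were not given in the sources used here, nor was any scaling across arrays. Platform annotation named 23521 of 41345 probe sets with 1 gene symbol. The probe set with the highest mean represented each gene, which left 22180 genes. Intensities were turned into log2(value + 16). The lmFit and eBayes functions of limma 3.58.1 (R 4.3.3) fitted 12 group means with a shared spread, and a 24 h cosine and sine per genotype, with Benjamini-Hochberg adjustment over all genes at 0.05. Amplitude is the height of the cosine above its mean. The fits were tested on simulated data. Groups came from the sample titles, and 3 arrays per group limit the precision. Named genes were the 5 members, list genes past a test, and the 3 genes with the highest and the lowest r per member. Members and lists were chosen with earlier results of these data known. Alternatives were another pseudocount, normalizations, a filter, blocks, array sets, weights, rhythm models and each array left out. Sequences are from RefSeq.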

Additional observations from a re-analysis of the deposited data

How the results depend on the processing

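Over 52 alternatives, 5918 of 6065 member results kept direction and side of the threshold, 0 reversed when called, 37 lost the threshold, 19 gained it and 91 changed size beyond the error or sign without a call. Genotype, per-ZT, interaction and differential rhythm calls of the members were 0 under every alternative run. Rhythmic members in WT livers were 1 in the smaller array set alone (Nr1d1). Step calls in TB livers were 0 in the larger array set alone and 1 when only TB arrays were fitted, and step calls in WT livers were 8 with array weights. With each array left out, rhythmic members were 3 to 4 in TB livers and 4 in WT livers, and step calls 3 to 6 in TB livers and 4 to 7 in WT livers. The Bhlhe40 rhythm was lost in the larger set (adjusted p 0.0516 in TB and 0.116 in WT) and the smaller set (0.309 in TB and 0.0609 in WT), and in WT livers also with only WT arrays (0.0554) and with 24 h and 12 h terms (0.0527). The cause was not tested, although these fits hold fewer arrays or more terms.

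Same-numbered TB and WT arrays of a ZT had deviations that correlated over 0.1 in 14 of 18 pairs (r -0.05 to 0.41, median 0.16, against a median of -0.12 for other numbers). The array of the smaller set bore the same number in TB and WT at all 6 ZT, and 12 of 18 TB arrays correlated best with their own number. Deviations cancel within a group, so r with the same number and r with other numbers are not independent. These values cannot tell pairing by number apart from the array set. Since no label pairs the numbers and 4 pairs missed 0.1, the reported fits have no block. With a replicate block the members had 3 rhythm calls in TB livers, 4 in WT livers, 4 step calls in TB livers and 4 in WT livers, where the ZT 16 step of Nr1d1 had an adjusted p of 0.0528. With pairs within each ZT as the block, or the array set, the counts were 3 and 4 rhythm calls and 4 and 5 step calls in TB and WT livers. With 3 arrays per group and levels of Bhlhe41 near the array medians, small differences were not detectable.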
